A study of Mus musculus with 6 samples.

Results

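The genes described here are 10 activation-response genes of lymphocytes: the transcription factor genes Egr1, Egr2 and Egr3, the co-repressor genes Nab1 and Nab2, the orphan nuclear receptor genes Nr4a1, Nr4a2 and Nr4a3, and the early response genes Ier2 and Dusp2. They are 10 of the 23420 genes listed, and all were found by symbol. They were chosen by name with KO minus WT values of these libraries already known, that of Egr2 among them, so their differences are a description and not independent evidence. The libraries are messenger RNA of germinal centre B cells, B cells that divide, mutate their immunoglobulin genes and compete for antigen, sorted by flow cytometry from mouse spleen on day 10 after immunization with the hapten-carrier conjugate NP-KLH. The KO group (3 libraries) was BASP1 fl/fl with hCD20TamCre+/-, and the WT group (3 libraries) was BASP1 +/+ with hCD20TamCre+/-. Both groups thus carried the tamoxifen-dependent Cre driven by hCD20, a B cell promoter, and both received 1 mg of tamoxifen on days 5, 7 and 9. BASP1 is a lipid-anchored membrane protein, and in the nucleus it can repress transcription as a partner of the Wilms tumour protein. The labels do not state ages, or that each library came from a mouse of its own, so p-values measure the spread between these libraries only, which may be technical.

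Antigen receptor signals reach these genes through the kinase ERK and through calcium. ERK activates the ternary complex factors that sit with SRF on CArG boxes and switch on EGR genes within minutes, while calcium acts on NR4A genes through MEF2 and CREB factors. EGR proteins induce their own co-repressor NAB2. NAB2 and the related NAB1 recruit the NuRD complex and limit EGR activity. NR4A proteins restrain lymphocytes that receive antigen signal without help, and Nr4a1 is widely used as a reporter of antigen receptor signalling. DUSP2 is a nuclear phosphatase that removes the activating phosphates of ERK, and IER2 is a nuclear protein induced early by growth signals.

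Values are the authors' log2 CPM, read counts scaled to library size, with differences between replicate numbers already removed, so KO and WT values of the same number mirror each other around the gene's mean and both groups have the same SD. For a single gene, the groups thus do not overlap whenever its 3 differences have 1 sign. The SDs given below come from 3 libraries or from 3 KO minus WT differences, 1 for each replicate number. Read depth is unknown. Linear values summed to between 997617 and 1000513 CPM per library. The highest value was 13.941 log2 CPM in all 6 libraries, and between 10160 and 10173 genes reached 1 CPM in each. The libraries thus had nearly the same distribution, which scaling to library size alone would not give, and the step used is not known here. Basp1, the targeted gene, had 3.27, 2.86 and 3.23 log2 CPM in KO libraries 1 to 3, against 5.49, 5.90 and 5.53 in WT libraries 1 to 3, a fold of 0.175 between geometric means. All 9 germinal centre B cell markers used, such as Bcl6 and Mef2b, lay above 1 CPM. They summed to between 3700 and 3870 CPM in KO and between 3800 and 3970 CPM in WT libraries. Of the 9, 3 had a KO minus WT difference above 0 and 6 below (median -0.0993 on the log2 scale), 3 had an unadjusted p under 0.05 and 0 passed the limma fit. Mef2b, the most abundant, averaged 985 CPM in KO and 986 CPM in WT libraries. Of 10 T cell markers listed 9 lay under 1 CPM and Cd3e was at the lowest common value of -5.063 in all 6 libraries. Lck was the exception, at 228 CPM in KO and 194 CPM in WT libraries, and the 10 summed to between 222 and 237 CPM in KO and between 190 and 203 CPM in WT libraries. The 7 B cell markers summed to between 7930 and 8250 CPM in KO and between 8450 and 8790 CPM in WT libraries. All 7 had a mean difference below 0, from -0.316 to -0.0137 on the log2 scale with a median of -0.0853. Of these 7, 1 had an unadjusted p under 0.05 and 0 passed the limma fit. Of 13 myeloid markers 10 lay under 1 CPM, and so did all 10 erythroid and platelet markers, which summed to between 2.59 and 7.28 CPM in KO and between 1.4 and 2.58 CPM in WT libraries. The T cell, B cell and erythroid sums of KO and WT libraries did not overlap. The T cell sum was nearly all Lck, so it is not read as a difference in T cells, and the erythroid sum came from genes under 1 CPM. Of all single genes tested, 27.7% had groups that did not overlap. The part of these sums in the results below was not tested. Of 6 plasma cell markers tested 3 had a difference above 0 and 3 below, from -0.167 to 0.927 on the log2 scale with a median of 0.00917. Of these 4 had an unadjusted p under 0.05 and 0 passed the limma fit, and Igj, the most abundant, averaged 1660 CPM in KO and 1850 CPM in WT libraries. Over all 10133 genes tested, 894 had an unadjusted p under 0.05 and 27 passed (0.266%). A count of 0 passing in marker lists this short therefore tells little.

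Of the 10 genes, 7 passed the limit of 1 CPM on their geometric mean and entered a limma fit of genotype and replicate number, and Egr3, Nr4a2 and Nr4a3 did not. A gene passed at a false discovery rate (FDR) of 5%, a Benjamini-Hochberg adjusted p under 0.05 over all genes tested. Egr2 was the 1 member of the 7 that passed between KO and WT, and it was higher in KO. Over all 10133 genes tested, 27 passed (0.266%), 17 of them higher in KO (0.168%) and 10 lower. Since that contrast was known when the genes were chosen, nothing is read from the count. The members did not move as a block: averaged over the replicate numbers 5 of the 7 were higher in KO and 2 lower, with a median difference of 0.086 on the log2 scale, beside 0.0037 over all genes tested. By replicate number the members' medians were 0.069, -0.003 and 0.057, and 4, 3 and 4 of the 7 were higher in KO. Groups did not overlap for 2 of the 7, Egr2 and Dusp2, in opposite directions, while 27.7% of all genes tested had groups that did not overlap.

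**Figure D1:**
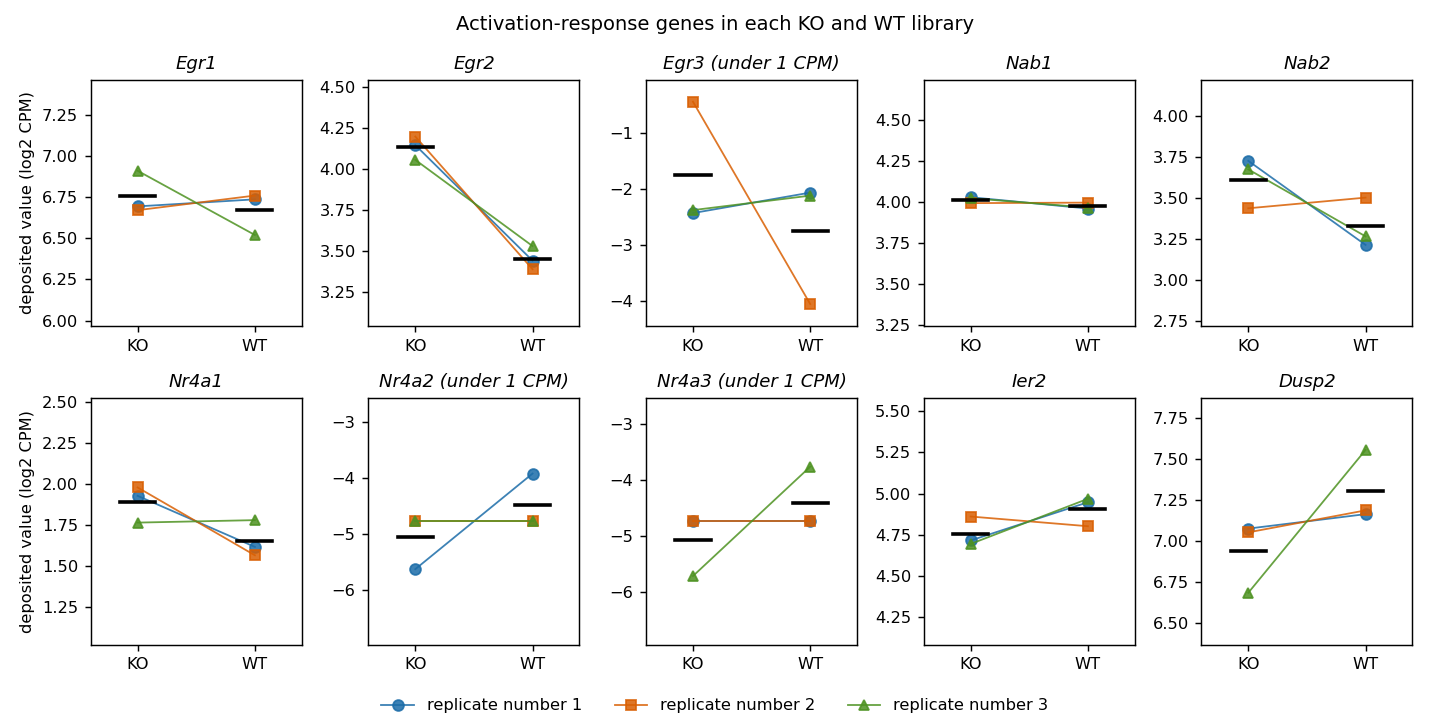
Deposited values (log2 CPM, vertical axis) of the 10 genes in the 3 KO and 3 WT libraries, with lines joining libraries of the same replicate number and black bars for group means. Panels differ in their centre, and those of Egr3, Nr4a2 and Nr4a3 span a wider range, while the 3 KO libraries lie above the 3 WT libraries for Egr2 and below them for Dusp2.

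Egr2 encodes a zinc finger factor that in lymphocytes both follows antigen receptor signals and limits the response to them. It had 4.15, 4.2 and 4.06 log2 CPM in KO libraries 1 to 3, against 3.44, 3.39 and 3.53 in WT libraries 1 to 3. Every KO library was above every WT library. In these mirrored values this says no more than that all 3 differences had 1 sign. In either direction, the same held for 27.7% of all genes tested. The groups were also further apart than the libraries within either group (SD 0.07, n = 3), from which replicate differences had been removed. In linear terms Egr2 averaged 17.5 CPM in KO and 11 CPM in WT libraries, a fold of 1.60. The difference was 0.68 ± 0.14 on the log2 scale (SD, n = 3 replicate numbers), with single values of 0.704, 0.808 and 0.525, and the limma fit gave a 95% interval of 0.41 to 0.95 and an adjusted p of 0.00366. The 1333 tested genes within 0.5 log2 CPM of its level had a median SD of 0.194. The call was lost without replicate number 2 (0.61, limma adjusted p = 0.116) and after removal of the trend of differences over transcript length and GC content (0.67, adjusted p = 0.102), with the difference little changed in both. It was lost too in a limma fit with no variance trend (adjusted p = 0.541). There 0 genes passed, 640 had an unadjusted p under 0.05, and the adjusted p of Basp1 was 0.15. In bulk RNA, more cells that express Egr2 and more Egr2 RNA per cell cannot be told apart. Some marker lists also differed by replicate number. The median KO minus WT difference of the 8 naive and follicular B cell markers was -0.304, 0.441 and -0.224 for numbers 1 to 3. That of the 10 nuclear and non-coding RNAs tested, a mixed list taken only as a rough guide to RNA quality, was -0.106, -0.504 and 0.260. Mean differences of those 10 ranged from -0.641 to 1.08. Of them 4 had an unadjusted p under 0.05, beside 894 of all 10133 genes tested, and 0 passed the limma fit, beside 27 of 10133. Egr2 was higher in KO for each number, and the part of those lists in its difference was not tested.

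Egr2 lies on the plus strand of chromosome 10 from 67535475 to 67542188 (GRCm38, called mm10 by the submitters), and its longest basic transcript has 2 exons. RefSeq (GRCm38.p6) gives promoter windows, from 250 bases before to 50 after a transcript start, for 7 of the 10 genes: Egr2 with 5 starts, and Nab1, Nab2, Nr4a1, Nr4a2, Nr4a3 and Dusp2 with 1 each. Egr1, Egr3 and Ier2 have no entry in the table. Windows are shown for Egr2, the member called higher in KO, for Nr4a1, the NR4A gene expressed in these cells, and for Dusp2, the member with non-overlapping groups in the other direction. They are written 5′ to 3′ along the gene, and capitals mark matches to the motifs described below.
Egr2, chr10:67537619-67537918, plus strand: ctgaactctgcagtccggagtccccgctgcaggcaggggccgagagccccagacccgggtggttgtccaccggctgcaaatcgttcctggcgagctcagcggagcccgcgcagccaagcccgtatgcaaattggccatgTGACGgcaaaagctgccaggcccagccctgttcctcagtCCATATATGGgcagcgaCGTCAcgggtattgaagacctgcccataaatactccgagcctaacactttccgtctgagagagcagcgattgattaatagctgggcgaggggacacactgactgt
Nr4a1, chr15:101266596-101266895, plus strand: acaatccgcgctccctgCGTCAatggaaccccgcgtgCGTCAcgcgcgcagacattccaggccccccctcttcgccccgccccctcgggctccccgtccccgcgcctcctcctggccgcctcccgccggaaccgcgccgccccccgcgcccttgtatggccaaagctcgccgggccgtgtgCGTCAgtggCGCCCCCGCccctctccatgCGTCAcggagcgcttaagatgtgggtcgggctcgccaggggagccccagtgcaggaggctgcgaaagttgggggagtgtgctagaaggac
Dusp2, chr2:127335909-127336208, plus strand: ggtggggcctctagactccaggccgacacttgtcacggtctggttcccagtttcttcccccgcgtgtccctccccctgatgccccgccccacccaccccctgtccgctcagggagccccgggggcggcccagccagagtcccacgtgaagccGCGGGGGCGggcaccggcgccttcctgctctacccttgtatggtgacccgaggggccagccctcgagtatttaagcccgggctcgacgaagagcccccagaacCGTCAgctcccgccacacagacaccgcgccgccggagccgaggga

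The Egr2 window holds a CArG box, the site of SRF, 72 to 63 bases before the start, between 2 matches to TGACG, the core of the CREB site. The window at another Egr2 start holds a second CArG box at the same distance. Egr2 was the 1 gene of the 7 with a CArG box, but it was searched over 5 windows and each other gene over 1. Of the 32851 single promoter windows in the table, 1.63% hold the box on either strand. Matches to TGACG were found in 6 of the 7 genes, all but Nab2, where Egr2 was counted over its 5 windows. The motif was in 20.8% of all windows and in 29.9% of those with at least 70% G and C. Nr4a1, Nr4a2 and Nr4a3 had 4 matches each. The whole CREB site TGACGTCA was in 0 of the 7 genes and in 1.79% of all windows. The EGR site GCGNGGGCG was in 4 of the 7 genes (Nab1, Nr4a1, Nr4a2 and Dusp2), beside 5.55% of all windows and 28.7% of the 3148 windows with at least 70% G and C. Those 4 windows had between 70.7% and 81.7% G and C, where the median of all windows was 52.7%. The Nab1 window held 3 EGR sites. The MEF2 box and the TATA box TATAAA each had a match in Nr4a2 alone, where they overlap, beside 3.19% and 13.6% of all windows. The AP-1 site TGANTCA (7.81% of all windows) and the NR4A site AAAGGTCA (1.51%) were in 0 of the 7. All motifs were searched on both strands, TGACG is contained in the whole CREB site, and a match is a run of letters and not a bound site.

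**Figure D2:**
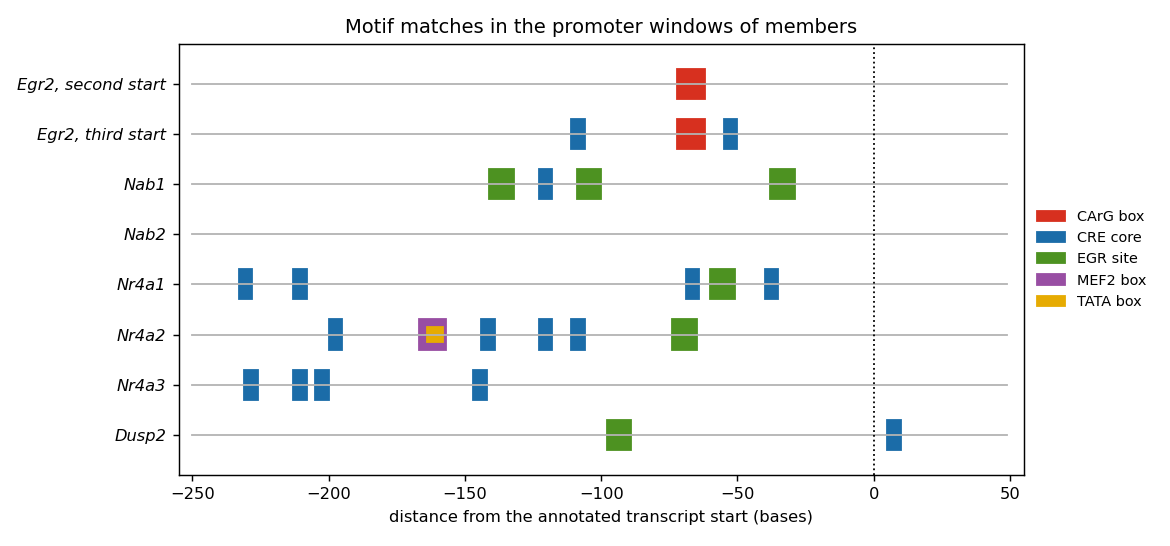
Motif matches on either strand in promoter windows of 7 genes, with the horizontal axis in bases from the annotated transcript start (dotted line) and a box for each match. CArG boxes appear in Egr2 only, at both starts drawn, EGR sites in Nab1, Nr4a1, Nr4a2 and Dusp2, and Nab2 has no match.

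Egr1 encodes the founding EGR factor, induced within minutes by ERK. It had 6.70, 6.67 and 6.91 log2 CPM in KO libraries 1 to 3, against 6.74, 6.76 and 6.52 in WT libraries 1 to 3. The groups overlapped: KO was lower for numbers 1 and 2 and higher for number 3. The difference was 0.09 ± 0.26 (SD, n = 3; limma adjusted p = 0.853), with a 95% interval from -0.09 to 0.26, and its SD was larger than the median of 0.117 for genes of like level. Egr1 averaged 108 CPM in KO and 102 CPM in WT libraries.

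Egr3, which is closely related to Egr2 and acts with it in T cells, lay under 1 CPM in every library. It had -2.42, -0.43 and -2.37 log2 CPM in KO libraries 1 to 3, against -2.06, -4.05 and -2.11 in WT libraries 1 to 3. KO was lower for numbers 1 and 3 and higher for number 2 alone, by 3.62 on the log2 scale, so its mean difference of 1.00 ± 2.27 (SD, n = 3) rests on that number. Egr1 lies on chromosome 18 (34859823 to 34864984) and Egr3 on chromosome 14 (70077203 to 70082614), both on the plus strand of GRCm38.

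Nab2 encodes a co-repressor that EGR factors induce, and it was the member with the next largest difference above 0 after Egr2 among those tested. It had 3.73, 3.44 and 3.67 log2 CPM in KO libraries 1 to 3, against 3.21, 3.50 and 3.27 in WT libraries 1 to 3. KO was higher for numbers 1 and 3 and slightly lower for number 2, so the groups overlapped. The difference was 0.28 ± 0.31 (SD, n = 3; limma adjusted p = 0.614), with a 95% interval from -0.02 to 0.59. Nab2 lies on the minus strand of chromosome 10 (127660918 to 127668568) and overlaps its neighbours: it shares 40 bases with Stat6, 1668 with Tmem194 (now Nemp1) and 1646 with the antisense RNA Gm16229, all on the other strand. Whether reads were counted by strand is not known here, so reads from shared bases may belong to either gene. Stat6 differed by 0.05 ± 0.12 and Tmem194 by 0.12 ± 0.17 (SD, n = 3).

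Nab1, the related co-repressor, had 4.03, 3.99 and 4.02 log2 CPM in KO libraries 1 to 3, against 3.96, 4.00 and 3.97 in WT libraries 1 to 3. It was the steadiest of the 7, with an SD of 0.04 where 0.186 was the median for genes of like level. The groups overlapped, and the difference was 0.04 ± 0.04 (SD, n = 3; limma adjusted p = 0.965). The 95% interval of the fit ran from -0.22 to 0.30, with a spread taken mostly from other genes. Nab1 lies on the minus strand of chromosome 1 (52457294 to 52500679).

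Nr4a1, also called Nur77, was the NR4A gene expressed in these cells. It had 1.93, 1.98 and 1.77 log2 CPM in KO libraries 1 to 3, against 1.62, 1.57 and 1.78 in WT libraries 1 to 3. KO was higher for numbers 1 and 2 and differed by -0.015 for number 3, so the groups overlapped. In linear terms this was 3.71 CPM in KO and 3.15 CPM in WT libraries. The difference was 0.24 ± 0.22 (SD, n = 3; limma adjusted p = 0.846), with a 95% interval from -0.22 to 0.70, so a difference as large as that of Egr2 lies inside the interval. Nr4a1 lies on chromosome 15 from 101254269 to 101274795, plus strand.

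Nr4a2 and Nr4a3, which share much of the function of Nr4a1 in lymphocytes, were near the lowest value of the files. Nr4a2 had -5.63, -4.78 and -4.78 log2 CPM in KO libraries 1 to 3, against -3.92, -4.78 and -4.78 in WT libraries 1 to 3. Nr4a3 had -4.74, -4.74 and -5.71 in KO libraries 1 to 3, against -4.74, -4.74 and -3.76 in WT libraries 1 to 3. For each gene KO and WT differed for a single replicate number, Nr4a2 for number 1 and Nr4a3 for number 3, and no fold is given for either. They lie on chromosome 2 (57106830 to 57124003, minus strand) and chromosome 4 (48045153 to 48086447, plus strand).

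Dusp2, the ERK phosphatase, went the other way from Egr2. It had 7.07, 7.05 and 6.68 log2 CPM in KO libraries 1 to 3, against 7.16, 7.19 and 7.55 in WT libraries 1 to 3. Every KO library was below every WT library, but the gap was small for numbers 1 and 2 (-0.088 and -0.134) and large for number 3 (-0.870). The difference was -0.36 ± 0.44 (SD, n = 3), 122 CPM in KO and 158 CPM in WT libraries, and its SD was above the median of 0.116 for genes of like level. It did not pass (limma adjusted p = 0.760, 95% interval from -0.96 to 0.23). It passed without replicate number 1 (-0.50, limma adjusted p = 0.000444), without number 2 (-0.48, adjusted p = 0.0246) and in the unfiltered fit (-0.36, adjusted p = 0.00711). Without number 1 only the differences of -0.134 and -0.870 remained, and without number 2 those of -0.088 and -0.870. With values so far apart, these small adjusted p-values lean on the spread of other genes and are not strong evidence. Without number 3 it was -0.11 (adjusted p = 0.653). Dusp2 lies on chromosome 2 from 127336159 to 127338376, plus strand.

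Ier2 had 4.71, 4.86 and 4.69 log2 CPM in KO libraries 1 to 3, against 4.95, 4.8 and 4.97 in WT libraries 1 to 3. KO was lower for numbers 1 and 3 and higher for number 2, the reverse of Nab2 in sign. The difference was -0.15 ± 0.18 (SD, n = 3; limma adjusted p = 0.774), with a 95% interval from -0.37 to 0.07. Ier2 has a single exon, on the minus strand of chromosome 8 (84661331 to 84662852).

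**Figure D3:**
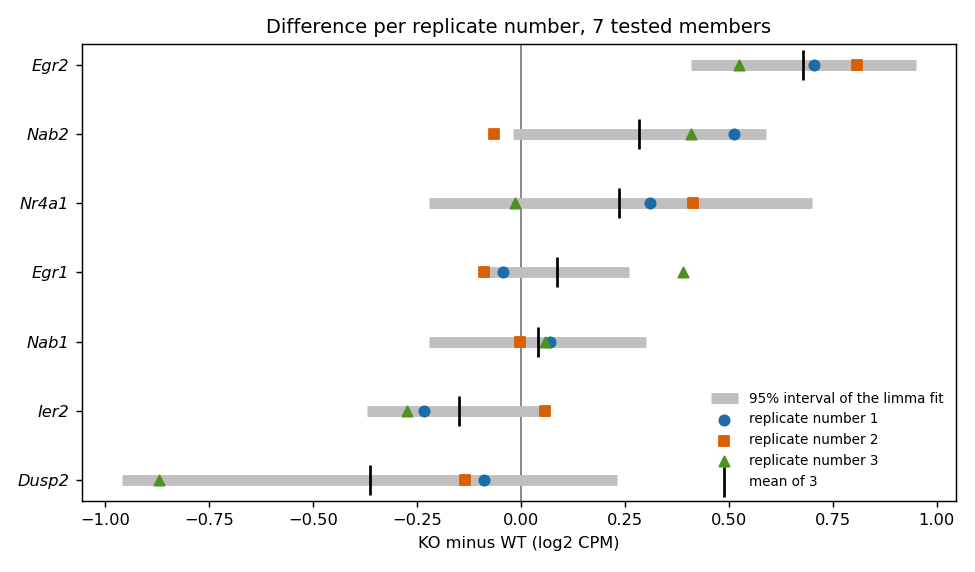
KO minus WT (log2 CPM, horizontal axis) of the 7 genes tested, with coloured symbols for replicate numbers 1 to 3, black ticks for their mean and grey bars for the 95% interval of the limma fit. The interval of Egr2 (0.41 to 0.95) lies above 0, and the other 6 intervals include 0.

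Levels of different genes were set side by side per kilobase of their longest GENCODE basic transcript, as log2 CPM per kb. The transcript used in these cells is not known. Dusp2 was the most abundant member (6.24 in KO and 6.61 in WT libraries on average), followed by Egr1 (4.59 in KO and 4.51 in WT) and Ier2 (4.15 in KO and 4.30 in WT). In KO libraries the lowest Egr1 value (4.51) lay above the highest of Ier2 (4.25), and in WT libraries the 2 ranges just met at 4.36. Neither gene passed between KO and WT, so no change of order is read from this. Egr2, Nab2 and Nab1 formed a middle tier, and the place of Egr2 there differed between KO and WT libraries. This restates the Egr2 difference, known when the genes were chosen. Before scaling by length, Egr2 averaged 3.45 and Nab2 3.33 log2 CPM in WT libraries, so their order there depends on the lengths used. In KO libraries Egr2 ranged from 2.49 to 2.63, above Nab2 (2.07 to 2.36) and Nab1 (2.04 to 2.08). In WT libraries Egr2 ranged from 1.82 to 1.96, below Nab1 (2.01 to 2.04) and overlapping Nab2 (1.84 to 2.13). Nab1 and Nab2 overlapped in both groups. Nr4a1 came next (0.54 in KO and 0.30 in WT), and Egr3, Nr4a2 and Nr4a3 lay lowest, at -3.72, -6.90 and -7.58 in KO and -4.72, -6.33 and -6.93 in WT libraries.

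Other immediate early genes, those that rise within the hour after a signal, were taken from a list of 49 (Jun, Fos, Klf and similar genes), of which 41 were tested. Of these 1 rose in KO and 0 fell, while 19 had a difference above 0 and 22 below, with a median of -0.035 beside 0.0037 over all genes. An unadjusted p under 0.05 was found for 9 of the 41, beside 894 of all 10133 genes tested. Jun, an AP-1 subunit, was the 1 that rose. It had 2.50, 2.44 and 2.21 log2 CPM in KO libraries 1 to 3, against 1.37, 1.43 and 1.66 in WT libraries 1 to 3, a difference of 0.90 ± 0.31 (SD, n = 3; limma adjusted p = 0.0482). Its call was lost without replicate number 1 (0.78, adjusted p = 0.225) or 2 (0.84, adjusted p = 0.35). It was lost too with non-robust moderation (adjusted p = 0.153), with no variance trend (limma adjusted p = 0.652) and with the length and GC trend removed (0.88, adjusted p = 0.264). The same held when the limit of 1 CPM was set on the arithmetic mean (adjusted p = 0.0513). Irf4, a dose-sensitive regulator of plasma cell fate, differed by 0.54 ± 0.26 (limma adjusted p = 0.0636, higher for 3 of 3 numbers). It passed without replicate number 3 (0.69, adjusted p = 0.031) and in the unfiltered fit (adjusted p = 0.0398). Klf10 differed by 0.28 ± 0.23 (higher for 3 of 3). A further 5 textbook genes were picked after their values were seen. Fos differed by -0.44 ± 0.08, lower in KO for 3 of 3 numbers and so opposite in sign to Egr2 and Jun (limma adjusted p = 0.726), at 1.72 CPM in KO and 2.33 CPM in WT libraries. Junb (0.08 ± 0.10), Myc (0.08 ± 0.07) and Cd69 (-0.09 ± 0.10) had means within 0.1 of 0. Btg2 differed by 0.21 ± 0.25, and passed without replicate number 1 (0.35, adjusted p = 0.0244).

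**Figure D4:**
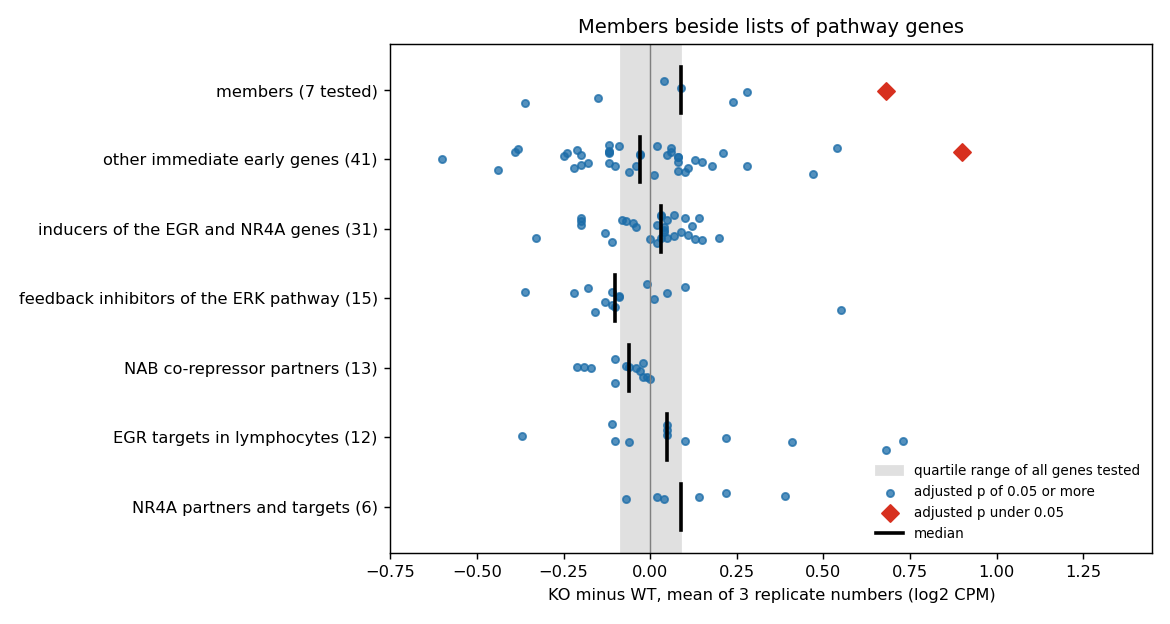
KO minus WT (log2 CPM, horizontal axis, mean of 3 replicate numbers) of the tested members and of the genes of 6 pathway lists, 1 point per gene, with black bars for medians, red diamonds for genes past 5% FDR and grey shading between the quartiles of all genes tested. The red points are Egr2 among the members and Jun among the other immediate early genes.

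Among genes upstream of EGR and NR4A transcription none passed 5% FDR in the limma fit. Over all 10133 genes tested only 27 did (0.266%), so 0 passing in lists this short tells little. An unadjusted p under 0.05 was found for 894 of all 10133. Of 31 genes that induce EGR and NR4A genes (SRF and its partners, CREB, MEF2 and NFAT factors, Ras and the ERK cascade) 0 passed and 1 had an unadjusted p under 0.05, 20 were above 0 and 11 below, with a median of 0.035 and a range from -0.33 to 0.20. The smallest p-values were those of Mef2d (-0.20 ± 0.04), Nfatc2 (0.20 ± 0.14) and Map2k1, the kinase that activates ERK (0.13 ± 0.06). Of 15 feedback inhibitors of the ERK pathway 0 passed and 2 had an unadjusted p under 0.05, 4 were above 0 and 11 below, with a median of -0.096. Dusp4, which encodes another nuclear ERK phosphatase, differed by 0.55 ± 0.29 (limma adjusted p = 0.331), with 2.6, 2.40 and 2.32 log2 CPM in KO libraries 1 to 3 against 1.73, 1.93 and 2.01 in WT libraries 1 to 3, so the groups did not overlap. Dgkz, which removes the Ras activator diacylglycerol, differed by -0.22 ± 0.10, and the adaptor gene Dok3 by -0.13 ± 0.17.

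On the output side the counts again stand beside 27 of all 10133 genes passing and 894 with an unadjusted p under 0.05. In the limma fit 0 of 13 NuRD subunit genes, through which NAB proteins repress, passed, and 2 had an unadjusted p under 0.05. Of the 13, 12 lay below 0 and 1 above, within -0.21 to 0.0013, with a median of -0.061. The examples were Mbd2 (-0.21 ± 0.27), the remodeller gene Chd4 (-0.19 ± 0.21) and Mbd3 (-0.10 ± 0.03). Of 12 genes known as EGR targets in lymphocytes 0 passed and 4 had an unadjusted p under 0.05, 8 were above 0 and 4 below, with a median of 0.052. Ndrg1, which EGR2 induces in anergic T cells, had 1.83, 1.93 and 1.84 log2 CPM in KO libraries 1 to 3, against 1.17, 1.07 and 1.17 in WT libraries 1 to 3. The groups did not overlap, and the difference was 0.73 ± 0.11 (limma adjusted p = 0.256). Cdkn1a (0.41 ± 0.62) and Socs3 (0.68 ± 1.02) each varied in sign between numbers. Of 6 tested partners and targets of NR4A factors 0 passed and 2 had an unadjusted p under 0.05, with a median of 0.094. Tox2 differed by 0.39 ± 0.19 (limma adjusted p = 0.0814), Tox, its relative, by 0.22 ± 0.19 and the adhesion molecule gene Icam1 by 0.14 ± 0.08, all higher for 3 of 3 numbers.

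The genes with differences most like those of Egr2 over the 3 replicate numbers, by Euclidean distance among tested genes that are not members, were Ndrg1 (0.159), Rnf169 (0.187), Cldn12 (0.2), Cers6 (0.261) and BC037704 (0.267). Their means lay between 0.74 and 2.06 log2 CPM in KO and between 0.12 and 1.49 in WT libraries, below those of Egr2. For Nr4a1 they were Tmem33 (0.012), the interferon-induced GTPase gene Igtp (0.028), Pard6a (0.058), Tlr12 (0.063) and Rcan1, a calcineurin inhibitor (0.070). With 3 differences per gene such likeness is a description of these libraries only. Tissue handling can raise stress genes together with immediate early genes. Of 9 heat shock and stress genes tested 6 had a difference above 0 and 3 below, from -0.19 to 0.236 on the log2 scale with a median of 0.0317. Of the 9, 3 had an unadjusted p under 0.05, beside 894 of all 10133 genes tested, and 0 passed the limma fit, beside 27 of 10133. The part of these 9 genes in the members' differences was not tested.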

How the data were processed

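Messenger RNA of sorted germinal centre B cells was sequenced in 3 KO and 3 WT libraries. Per the submitters' processing notes, reads were handled with STAR 2.6.1a and featureCounts (Subread 2.0.1) on build mm10, with limma, Trim Galore 0.6.5 and FastQC 0.11.7 also listed. Their settings are not known here. The deposited values are log2 CPM, by their sums, on nearly the same distribution in all libraries. KO and WT values of a replicate number had the same sum for each number, to within 0.001, so replicate differences had been removed before deposit. The fit therefore kept the number as a replicate block, and whether the numbers pair mice cannot be read from the values.

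KO was compared with WT in limma 3.58.1 (R 4.3.3; genotype and replicate number, variance trend, robust moderation, two-sided) over 10133 genes with a geometric mean of at least 1 CPM and not 1 value throughout, with Benjamini-Hochberg adjustment at 0.05. Each gene had 2 residual and a median of 81.2 prior degrees of freedom. The spread used for most genes thus came largely from other genes. Dusp2, with 1.44 prior degrees of freedom, was an exception in this main fit, which does not carry over to the alternatives. Lengths and positions came from GENCODE M21, and promoters from RefSeq.

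The members and lists were chosen with earlier results of these data known. Genes named are the members, Basp1, list genes past 5% FDR or among the 3 smallest p of a list, the highest marker of a list, markers at the lowest value, the 5 most like Egr2 and the 5 most like Nr4a1. One germinal centre marker is not reported here. Alternatives changed the block, variance trend, moderation, filter, log offset, length and GC trend, or left out 1 replicate number.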

Additional observations from a re-analysis of the deposited data

How the results depend on the processing

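Without the replicate block 142 genes passed, against 27 with it, and 2 of the other immediate early genes against 1, and Mef2d (limma adjusted p = 0.0443) and Ndrg1 (0.0352) joined. Replicate differences had been removed before deposit, so a fit without the block counts too many residual degrees of freedom. The genes that joined there are not read as results. The block changed no call of a member. With no variance trend 0 genes, 0 members and 0 other immediate early genes passed in limma, with 640, 1 and 6 at an unadjusted p under 0.05. With non-robust moderation 12 genes passed and 0 of the other immediate early genes. With no filter on low values 95 genes passed, 2 members (Egr2 and Dusp2) and 3 other immediate early genes. With a stricter limit of 4 CPM, and with the limit on the arithmetic mean (chosen after seeing the data), 0 other immediate early genes passed. Jun lay under the limit of 4 CPM and so was not tested there. With the length and GC trend removed 4 genes passed, 0 of them members and 0 other immediate early genes. Leaving out 1 replicate number gave 11 to 136 genes, 1 to 2 members, 0 to 3 other immediate early genes and a median member difference of 0.033 to 0.151. The 1 member was Dusp2, and not Egr2, without number 2, and it was Egr2 without number 3. Egr1 differed by -0.066 without replicate number 3, and by up to 0.17 with another left out. Depth is unknown, and Egr3, Nr4a2 and Nr4a3 were too low to compare.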
